A study of Mus musculus and Mus musculus x Mus spretus with 14 samples.

Results

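CARB and CARC are malignant spindle cell lines from mouse skin, and they were set against A5, D3 and H11, the other spindle lines of the same array series. The choice rested on the labels alone: no squamous sister line is given for CARB and CARC, whereas A5, D3 and H11 came from tumours that also yielded a squamous line. CARB and CARC are 2 of the 5 spindle lines and 2 of the 13 lines (14 arrays) in the series. CARB and CARC were isolated from highly aggressive spindle carcinomas of NIH/Swiss mice that had received DMBA, a mutagen, followed by TPA, a tumour promoter. A5 and D3 came from 1 tumour of an F1 hybrid of M. spretus and CBA given repeated DMBA, and share that tumour with the squamous line B9. H11 was a single cell clone from SN161, a lymph node metastasis in an F1 129/NIH mouse, and shares its tumour with the squamous line E4. Line origin, mouse strain and carcinogen treatment cannot be told apart in the comparison. Each line was grown in serum-containing DMEM and contributed 1 array, except A5 with 2, which were averaged. The other 8 lines are squamous: B9, E4 and PDVC57 are malignant, MSCP1 and P6 papilloma lines, and C5N, C50 and NK immortalized keratinocytes.

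MicroRNAs are short RNAs that guide Argonaute proteins to messenger RNAs, chiefly through pairing of the seed, bases 2 to 8 of the mature strand. In skin carcinogenesis the spindle state is the end point of an epithelial to mesenchymal change, in which squamous cells lose epithelial character and take on a fibroblast-like shape. The miR-200 family and miR-205 maintain the epithelial state by repressing Zeb1 and Zeb2, and miR-203 promotes keratinocyte differentiation by repressing p63. A miR-199a gene shares a long transcript with miR-214 in mesenchymal cells, and miR-143 and miR-145 form a cluster typical of smooth muscle and fibroblasts. The miR-34 family is induced by p53 and represses cell-cycle genes.

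The mature sequences of the miRNAs on which the results turn are given here with the seed in capitals, 5′ to 3′, from RefSeq annotation of mouse build GRCm38.p6. Array names without an arm were read as the main arm, and miR-142 as RefSeq's miR-142a. Of 22 names looked up, 17 were kept with a sequence, and the other names had no entry or were left out. The first set holds miR-199 and miR-34 miRNAs with large positive differences between CARB and CARC and the other spindle lines, and miR-199b* and miR-143 are given by name only. miR-199a-3p is encoded at chr1:162217883-162217904 on the plus strand and at chr9:21496498-21496519 on the minus strand, and its probe is shared with miR-199b. miR-34a lies at chr4:150068473-150068494 on the plus strand and miR-34b at chr9:51103610-51103632 on the minus strand, and both carry the seed GGCAGUG.
miR-199a-3p: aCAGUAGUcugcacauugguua
miR-199a-5p: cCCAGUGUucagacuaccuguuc
miR-34a: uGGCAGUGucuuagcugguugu
miR-34b-5p: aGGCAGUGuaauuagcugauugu
The second set holds both arms of miR-142, encoded at chr11:87756867-87756925 on the plus strand and bright in only some of the spindle lines.
miR-142-5p: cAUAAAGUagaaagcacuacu
miR-142-3p: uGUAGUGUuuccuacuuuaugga
The third set shows relatives that share a seed and yet diverged in A5. With positions counted from 1 at the 5′ end, let-7e differs from let-7a by U9G in 22 bases, and let-7g differs from let-7a by G12U and U18C. miR-20a differs from miR-17 by C1U and C12U in 23 bases.
let-7a: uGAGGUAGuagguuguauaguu
let-7e: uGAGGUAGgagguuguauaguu
let-7g: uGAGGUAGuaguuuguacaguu
miR-17: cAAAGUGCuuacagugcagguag
miR-20a: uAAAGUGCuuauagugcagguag

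Levels are deposited log2 signals of 576 mouse probes, which name 568 miRNAs. The 8 negative control probes had medians of 6.55 to 6.68 in the spindle lines, and a probe was called above background when it exceeded that median of its line by more than 1 log2 unit. By that rule 119 probes were above background in CARB and 141 in CARC, against 133 in A5, 185 in D3 and 141 in H11. Differences are CARB and CARC minus A5, D3 and H11, with the standard error from limma, and adjusted p-values are Benjamini-Hochberg over the 576 probes. In these bulk RNA preparations, fewer cells with a miRNA and less of it per cell cannot be told apart.

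The arrays of A5 and D3 stood apart from the others. Over the mouse probes, A5 correlated with the other spindle lines at Pearson r of 0.702 to 0.778, whereas the pairs among CARB, CARC, D3 and H11 lay between 0.872 and 0.934. The 2 A5 arrays repeated each other at r = 0.994, with a median absolute difference of 0.114 and 0 probes over 1 unit apart. The mean of the 10 spike-in probes, synthetic RNAs that report on labelling and hybridisation, was 9.81 in CARB and 10.02 in CARC, against 9.27 in A5, 7.63 in D3 and 9.13 in H11. CARB and CARC were above all of the other 3 lines at 8 of the 10 spike-in probes (difference of the means 1.24, exact two-sided permutation p = 0.2 over 10 splits, of which the smallest possible p is 0.1, adjusted p = 0.5 over 5 tests). U6-snRNA-2, a small nuclear RNA used as a loading control, stood at 12.39 in CARB and 12.73 in CARC, against 12.70 in A5, 14.77 in D3 and 12.55 in H11 (exact permutation p = 0.7). The part of these differences between arrays in the results was not tested.

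**Figure D1:**
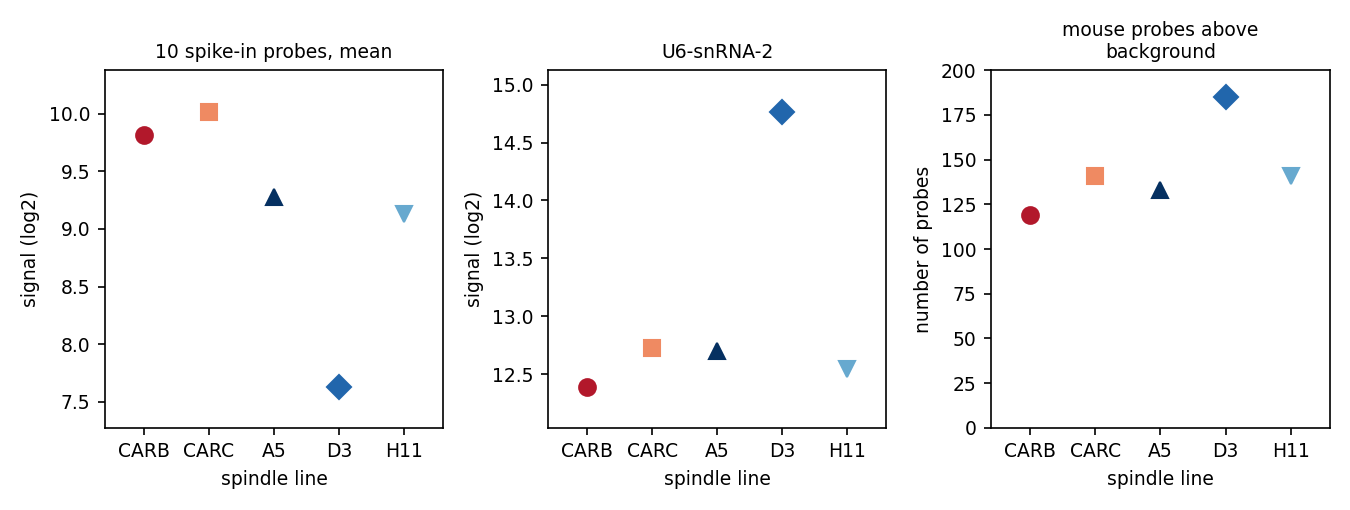
Controls in the 5 spindle lines, 1 point per line (A5: mean of 2 arrays): the mean log2 signal of 10 spike-in probes, the log2 signal of U6-snRNA-2, and the number of mouse probes above background. CARB and CARC have the highest spike-in means, 9.81 and 10.02, and D3 stands apart with the lowest spike-in mean, 7.63, the highest U6-snRNA-2, 14.77, and the most probes above background, 185.

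The label of spindle cells was checked against epithelial markers. All 5 members of the miR-200 family were within background in every spindle line, with a family mean of 6.64 in CARB and 6.69 in CARC, against 6.68 in A5, 6.91 in D3 and 6.79 in H11. The family mean was higher in each of the 8 squamous lines, at 7.62 in B9 and 7.56 in E4, the squamous sisters, at 7.23 in both C5N and MSCP1, and at 9.16 to 10.18 in the other 4. miR-203, named in the series title, was 6.80 in CARB and 7.17 in CARC, against 6.86 in A5, 6.95 in D3 and 7.13 in H11 (difference 0.0097, exact two-sided permutation p = 1). miR-205, also named in the title, was 6.52 in CARB and 6.88 in CARC, against 7.39 in A5, 6.92 in D3 and 6.90 in H11 (difference -0.37, exact permutation p = 0.2, adjusted p = 0.5 over 5 tests). These signals lay within 1 unit of the negative controls in all 5 lines, so neither miRNA separated CARB and CARC from the others at this sensitivity. They were not bright in every squamous line either: miR-203 was 6.94 in B9 and 6.80 in E4, and miR-205 was 10.94 in B9 and 6.69 in E4.

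The probes called between CARB and CARC and the other spindle lines were for miR-199 and miR-143. Of the 576 probes, 4 passed an adjusted p of 0.05 (0.694%), and all 4 were higher in CARB and CARC: the 3 probes for products of the miR-199 genes and the probe for miR-143. How far the miR-199 probes cross-hybridise was not tested, so they need not be separate calls. In the other direction limma called 0 probes (0.0%), with 18 at an unadjusted p under 0.05, against 15 at that level that were higher.

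miR-199a-3p and miR-199b, measured by 1 probe, stood at 9.45 in CARB and 9.11 in CARC, against 6.49 in A5, 6.95 in D3 and 8.01 in H11. The groups did not overlap, and H11 alone of the other 3 spindle lines was above background. The difference was 2.13 ± 0.37 (SE, 2 against 3 lines, limma adjusted p = 0.0167), while the 8 squamous lines lay between 6.46 and 6.98. miR-199a-5p, the opposite strand of the same hairpins, stood at 8.97 in CARB and 8.87 in CARC, against 6.96 in A5, 6.82 in D3 and 7.45 in H11. It was within background in A5, D3 and H11, so its difference of 1.84 ± 0.29 (limma adjusted p = 0.0099) may understate the change, which was not tested. The star strand miR-199b* stood at 9.02 in CARB and 8.79 in CARC, against 6.69 in A5, 6.65 in D3 and 7.60 in H11, a difference of 1.93 ± 0.29 (limma adjusted p = 0.0099). Each miR-199 probe thus had its intermediate value in H11, with A5 and D3 at the level of the squamous lines. For miR-199a-5p and miR-199b* that H11 value was within background. For miR-199a-5p it was also below the highest squamous level of 7.47.

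miR-143, a regulator of smooth muscle differentiation, stood at 9.31 in CARB and 9.32 in CARC, against 6.69 in A5, 8.35 in D3 and 7.18 in H11. Here D3, not H11, took the intermediate place (difference 1.91 ± 0.38, limma adjusted p = 0.0390), and the squamous lines ran from 6.20 to 6.73. Its cluster partner miR-145 stood at 7.76 in CARB and 8.26 in CARC, against 6.57 in A5, 7.59 in D3 and 6.75 in H11, with the same order of the other lines. Its difference of 1.03 ± 0.27 did not pass the threshold (limma adjusted p = 0.234). miR-199a has 2 genes, whose products its probes cannot tell apart, and miR-214 is transcribed together with 1 of them. miR-214 did not follow miR-199a: 8.73 in CARB and 8.62 in CARC, against 9.37 in A5, 8.02 in D3 and 8.00 in H11. Among the spindle lines A5 therefore had the highest miR-214 level and the lowest level on the probe of miR-199a-3p and miR-199b. miR-10b, a miRNA linked to invasion, was 7.35 in CARB and 7.10 in CARC, against 7.78 in A5, 7.73 in D3 and 7.06 in H11.

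Of the 6 probes for fibroblast and mesenchymal miRNAs, 3 were higher at an adjusted p of 0.05, 4 were above all of A5, D3 and H11, and the median difference was 1.44, against -0.09 over all mouse probes. Without overlap between the groups, 19 of the 576 probes were higher (3.3%) and 112 lower (19.4%). The mean over the 6 was 8.60 in CARB and 8.54 in CARC, against 7.31 in A5, 7.58 in D3 and 7.41 in H11. The list was drawn up with earlier results of these data known, so its count is a description. Under every scaling tried, 5 or 6 of the 6 differences stayed above 0.

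The calls depend on which lines set the spread. In a fit of the 5 spindle lines alone, limma called 0 probes (31 at an unadjusted p under 0.05), and the adjusted p was 0.402 for miR-199a-3p and miR-199b, 0.356 for miR-199b*, 0.356 for miR-199a-5p and 0.639 for miR-143. The 13-line fit draws its spread partly from squamous lines in which these 4 probes sat at background. Without CARB it called 0 probes (10 at an unadjusted p under 0.05) and without A5 also 0 (22 at that level), with adjusted p of 0.0515 for miR-199b* and miR-199a-5p without A5. Without CARC it called 20, of which 3 were the miR-199 probes, while miR-148a*, miR-193b, miR-208b and miR-500 among them were bright in CARB alone, and miR-143 was not called (adjusted p = 0.0591). Without H11, miR-143 was not called either (adjusted p = 0.161), and without D3, miR-199a-3p and miR-199b were not (adjusted p = 0.0585).

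**Figure D2:**
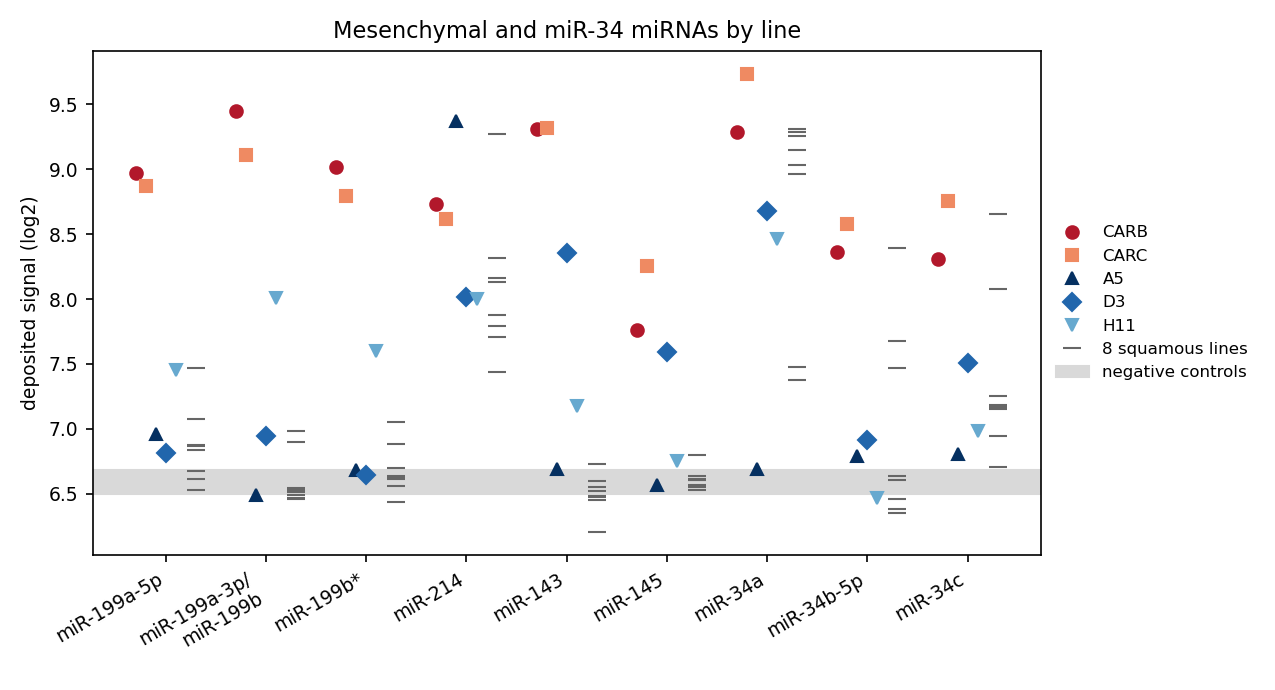
Deposited log2 signal of mesenchymal and miR-34 miRNAs by line: coloured symbols are the 5 spindle lines, grey dashes the 8 squamous lines, and the band the range of the negative control medians over lines. CARB and CARC lie above A5, D3 and H11 for all but miR-214, and for the miR-199, miR-143 and miR-145 probes also above all squamous lines.

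The miR-34 family gave the next largest positive differences, none of which passed the test. miR-34b-5p was 8.36 in CARB and 8.58 in CARC, against 6.79 in A5, 6.91 in D3 and 6.47 in H11. It was within background in all of A5, D3 and H11, so the difference of 1.75 ± 0.39 (limma adjusted p = 0.0797) may understate the gap, which was not tested. miR-34c, made from the same transcript, was 8.31 in CARB and 8.76 in CARC, against 6.80 in A5, 7.50 in D3 and 6.98 in H11 (difference 1.44, limma adjusted p = 0.714). miR-34a, encoded on another chromosome, was 9.28 in CARB and 9.74 in CARC, against 6.69 in A5, 8.68 in D3 and 8.46 in H11 (difference 1.57 ± 0.81, limma adjusted p = 0.748). These 3 miRNAs were above A5, D3 and H11 in both CARB and CARC, and miR-34a and miR-34c were also among the probes on which CARC was highest. Squamous lines reached 9.31 for miR-34a, 8.40 for miR-34b-5p and 8.66 for miR-34c. The other arm, miR-34b-3p, overlapped: 9.13 in CARB and 9.59 in CARC, against 7.14 in A5, 10.49 in D3 and 9.34 in H11. Over the 7 miR-34 and miR-449 probes 4 differences were positive, 3 without overlap (over all probes 3.3% were), and 0 passed the test. Their median was 0.37, and -0.05 without A5.

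In all, 6 mouse probes were higher in both CARB and CARC than in each of the other 11 lines. They were the 3 miR-199 probes, miR-143, miR-145 and miR-487b, and 7 probes were lower than in all 11. miR-487b, from the imprinted Dlk1-Dio3 region, was 9.54 in CARB and 9.62 in CARC, against 9.47 in A5, 8.79 in D3 and 8.19 in H11, so its margin over A5 was small (difference 0.76, limma adjusted p = 0.910). Of the 55 measured miRNAs of the Dlk1-Dio3 region, 46 were within background in all 5 spindle lines, and 0 passed the test. miR-7a, which represses Egfr, was 8.41 in CARB and 8.02 in CARC, against 7.73 in A5, 7.88 in D3 and 7.88 in H11, below the highest squamous level of 8.58.

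Most other differences pointed down, though none passed the test. Of the 576 differences 397 were below 0 (68.9%), with a median of -0.09. Signals were also less spread on the CARB and CARC arrays: the SD over mouse probes was 1.08 in CARB and 1.05 in CARC, against 1.32 in A5, 1.38 in D3 and 1.24 in H11. When each line was shifted so that its mean over the 67 probes above background in all 5 lines was equal, a choice made after seeing the data, the median difference became 0.61 in place of -0.09 and 11.5% of differences lay below 0. This shift to equal means adds the same amount to every difference, including those of probes within background. The general downward shift therefore reverses with the scale chosen.

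**Figure D3:**
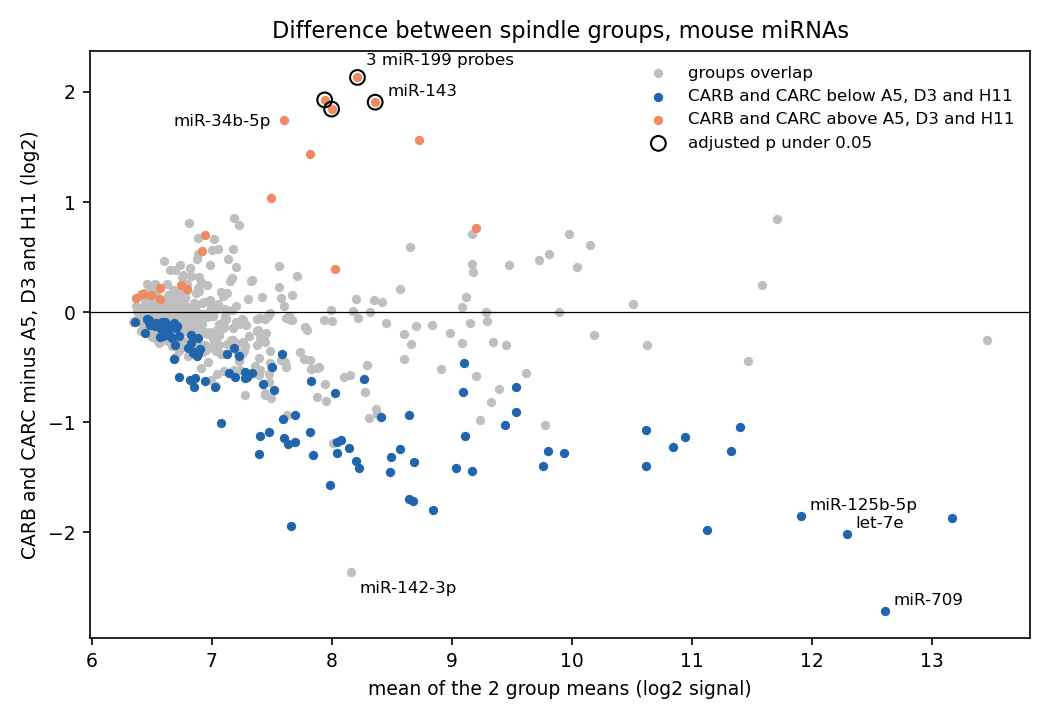
Difference between CARB and CARC and the other spindle lines (y axis, log2) against the mean of the 2 group means (x axis, log2 signal), 1 point for each of 568 mouse miRNAs. The 4 ringed probes passed an adjusted p of 0.05, orange points lie above and blue points below A5, D3 and H11 without overlap, and points at high signal lie mostly below 0.

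Among the larger negative differences were those of miR-709 and let-7e, given as values. miR-709 was 10.98 in CARB and 11.53 in CARC, against 14.84 in A5, 14.46 in D3 and 12.62 in H11, a difference of -2.72. It was -2.01 after the shift to equal means of detected probes, which raises every difference alike. let-7e, a member of the let-7 family that represses growth genes such as Hmga2 and Ras, was 11.10 in CARB and 11.47 in CARC, against 14.26 in A5, 13.18 in D3 and 12.45 in H11 (difference -2.01, limma adjusted p = 0.748). miR-125b-5p, abundant in skin stem cells, was 11.16 in CARB and 10.81 in CARC, against 14.18 in A5, 12.55 in D3 and 11.80 in H11 (difference -1.86). In each of these 3 A5 was highest and H11 lay nearest to CARB and CARC.

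The other lines fell in the same order for miR-690 and miR-101b. miR-690 was 12.44 in CARB and 12.03 in CARC, against 15.17 in A5, 13.97 in D3 and 13.19 in H11. miR-101b, whose family represses the histone methyltransferase Ezh2, was 7.05 in CARB and 7.35 in CARC, against 9.79 in A5, 8.29 in D3 and 8.22 in H11, so that it was within background in CARB and CARC. The probes for miR-691, miR-801, miR-685 and miR-706 had differences of -1.98, -1.80, -1.71 and -1.70. After the shift to equal means of detected probes the differences of all these stayed below 0. The shift raises every difference by the same amount, so differences this large stay below 0 by arithmetic. That is no check on them.

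Grouped by family, 12 of the 13 members of the miR-17 cluster and its paralogs, which drive proliferation downstream of Myc, had a difference below 0, 6 of them without overlap (over all probes 19.4% were), with a median of -0.23 (quantile normalization turned the count to 8 of 13, and the shift to equal means of detected probes to 6). miR-17 was 8.44 in CARB and 8.45 in CARC, against 10.58 in A5, 9.83 in D3 and 9.25 in H11. All 3 members of the miR-183, miR-96 and miR-182 cluster, which is common in epithelial tumours, were below 0 with a median of -1.16 (2 of 3 after the shift). miR-96 was 7.45 in CARB and 7.60 in CARC, against 8.60 in A5, 9.35 in D3 and 8.68 in H11, and miR-182 behaved alike with 7.55 in CARB and 7.44 in CARC, against 8.07 in A5, 9.22 in D3 and 8.69 in H11. D3 was the highest spindle line for all 3 members of that cluster. Over all mouse probes 68.9% of differences were below 0, with 59.9% under quantile normalization and 11.5% after the shift.

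Other families were divided, and their counts stand beside 68.9% below 0 over all mouse probes (59.9% under quantile normalization, 11.5% after the shift). Of the miR-23, miR-27 and miR-24 probes 4 of 5 were below 0 (median -1.07; 3 of 5 under quantile normalization and after the shift), and of the miR-26 and miR-101 families 3 of 4 (median -0.91, and 3 of 4 under every scaling tried). The let-7 family had 4 differences above and 5 below 0 (median -0.30), which became 5 above under quantile normalization and 7 after the shift. None of the members of these families passed the test in either direction. All 5 miR-30 members were below 0 (3 of 5 under quantile normalization and 0 after the shift), and H11 was the highest spindle line for all 5.

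Among the remaining groups no member passed the test. All 6 Hox-cluster miRNAs had a difference below 0 (1 of 6 after the shift to equal means of detected probes), with the largest for miR-196b: it was 6.47 in CARB and 6.68 in CARC, against 7.50 in A5, 8.03 in D3 and 7.21 in H11. Only D3 was above background for miR-196b, and only 1 of the 6 was above background in 2 or more spindle lines. In the cluster in an intron of Sfmbt2, 16 of 21 were below 0 (13 under quantile normalization and 4 after the shift). Of the 9 members of the X-linked cluster of miR-322 and miR-503, 7 were below 0 (5 under quantile normalization and 1 after the shift). Over all mouse probes 68.9% were below 0 (59.9% and 11.5% in those settings), so the counts of these clusters say little about them. miR-503, which represses cell-cycle genes, was 7.81 in CARB and 8.05 in CARC, against 9.64 in A5, 8.75 in D3 and 8.27 in H11. miR-155, an inflammatory and oncogenic miRNA, was 6.87 in CARB and 7.28 in CARC, against 8.70 in A5, 7.74 in D3 and 6.99 in H11. It was within background in CARB, CARC and H11.

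miR-142, a miRNA of blood-forming cells, divided the spindle lines in another way. miR-142-3p was 7.15 in CARB and 6.81 in CARC, against 7.06 in A5, 9.89 in D3 and 11.08 in H11. miR-142-5p was 6.68 in CARB and 6.69 in CARC, against 7.13 in A5, 8.91 in D3 and 9.86 in H11. Both arms of the hairpin were thus within background in CARB, CARC and A5, and well above it in D3 and H11. The differences of -2.36 ± 1.07 and -1.94 ± 0.79 did not pass the test (limma adjusted p = 0.748 for both), and A5 lay with CARB and CARC. Among sister lines, E4, which shares a tumour with H11, gave 10.01 for miR-142-3p and 9.33 for miR-142-5p. B9, which shares a tumour with A5 and D3, gave 6.72 and 6.71, so D3 alone of the 3 lines from that tumour was bright. The other markers of blood cells were not bright: miR-223 lay between 6.75 and 7.14, miR-451 between 6.30 and 6.63, miR-144 between 6.31 and 6.52 and miR-150 between 6.74 and 7.74 across the 5 spindle lines. Only miR-150 in A5 exceeded its line's background there.

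**Figure D4:**
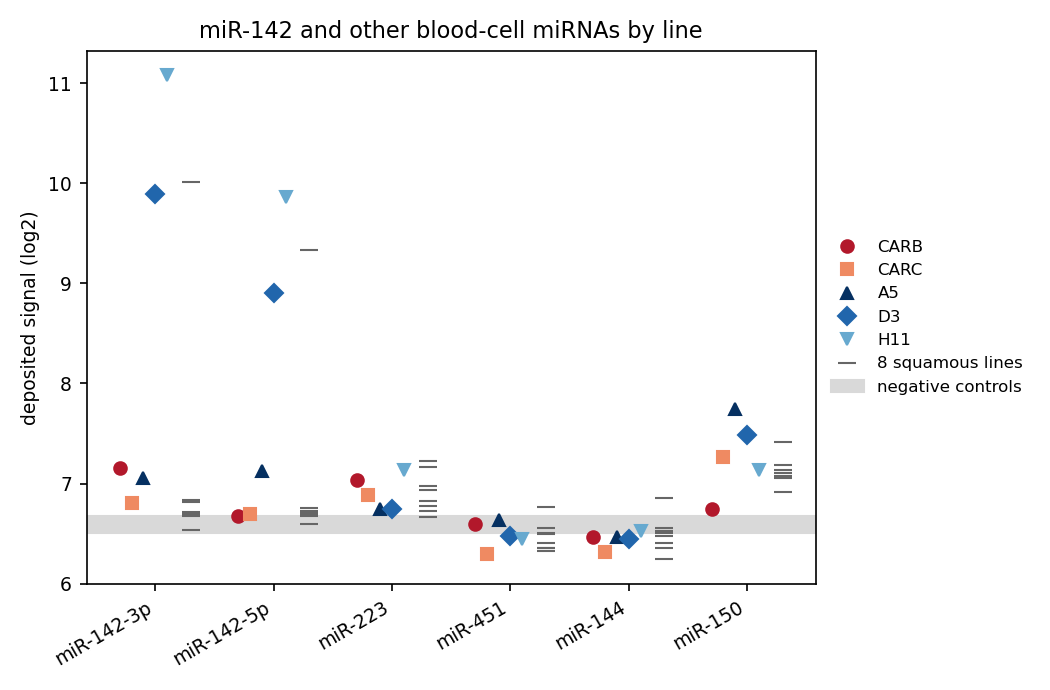
Deposited log2 signal of the 6 blood-cell markers by line, with the 5 spindle lines as coloured symbols, the 8 squamous lines as grey dashes and the range of the negative control medians as a band. Only D3, H11 and the squamous line E4 exceed the band clearly for miR-142, and no line does so for miR-223, miR-451 or miR-144.

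Most markers of further cell types were near background in the spindle lines. In all, 4 of 5 muscle markers, 3 of 6 neural markers, both endothelial markers, 12 of 13 pluripotency markers and the liver marker miR-122 were above background in none of them. All 6 neural differences were below 0, against 68.9% over all mouse probes. The count was 5 of 6 under quantile normalization and 0 after the shift to equal means of detected probes. None of the 6 passed the test, and D3 was above background for miR-129-3p (7.83) and miR-138 (7.92). The mean over muscle markers was 7.01 in CARB and 7.05 in CARC, against 6.89 to 7.11 in the other 3 lines, beside the differences in miR-143 and miR-145.

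Levels varied widely among the spindle lines. Over the 5 lines 216 of 576 probes (37.5%) had a range above 1 log2 unit, 68 above 2 and 19 above 3. The spread between cultures of 1 line was not measured. A5 was most often the extreme line: of the 216 probes it was the highest line on 89 and the lowest on 75, while CARB was highest on 18 and lowest on 75, CARC on 11 and 29, D3 on 66 and 10, and H11 on 32 and 27. Without A5, 145 probes still ranged over more than 1 unit. CARB and CARC differed by more than 1 unit at 21 probes (r = 0.917), compared with 56 for CARC and D3 (r = 0.923), 44 for D3 and H11 (r = 0.934) and 137 for CARB and A5 (r = 0.702). CARB and CARC were therefore closest by the number of probes, but not by correlation over all mouse probes. Over the 179 probes above background in at least 2 spindle lines they were also closest by correlation. Their r there was 0.919, against 0.875 for D3 and H11 and 0.835 for CARC and D3. These correlations are across probes, which share background and scale.

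Descent from 1 tumour did not make lines more alike in every case. D3 and its squamous sister B9 correlated at r = 0.950 over all mouse probes, above any pair of spindle lines. They had 24 probes over 1 unit apart, against 21 for CARB and CARC. Over probes above background in at least 2 spindle lines, r was 0.9185 for D3 and B9 and 0.9190 for CARB and CARC. A5, from the same tumour, correlated with D3 at 0.778 and with B9 at 0.777, with 116 and 105 probes apart. Its correlation with the papilloma line MSCP1, whose array had only 37 probes above background, was 0.818. H11 and its squamous sister E4 correlated at 0.874. CARB and CARC, which have no squamous line from their own tumours here, correlated with B9 at 0.837 and 0.888.

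The probes with the largest spread among spindle lines were mostly those on which A5 was low. miR-21, an oncogenic miRNA that represses Pdcd4, was 12.50 in CARB and 11.78 in CARC, against 8.40 in A5, 12.52 in D3 and 12.95 in H11. Both A5 arrays were low, at 8.56 and 8.25. miR-31, abundant in epidermis, was 10.58 in CARB and 9.91 in CARC, against 7.61 in A5, 11.61 in D3 and 10.30 in H11. miR-16, which represses cyclin D1 and Bcl2, was 9.71 in CARB and 8.80 in CARC, against 6.99 in A5, 10.83 in D3 and 10.20 in H11. A5 was below the other 4 lines in each of these, and likewise for miR-22, at 7.51 against 9.25 to 11.28.

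Within families A5 split close relatives, as the sequences above show. For let-7a the level was 10.06 in CARB and 9.87 in CARC, against 7.56 in A5, 10.51 in D3 and 10.40 in H11, and for let-7g 10.57 in CARB and 10.34 in CARC, against 7.28 in A5, 11.65 in D3 and 10.59 in H11. Yet A5 was the highest line for let-7e, from which let-7a differs at a single base. Across the 9 let-7 members A5 was highest on 4 and lowest on 5, so it was never intermediate. In the miR-17 group of 13 it was highest on 6 and lowest on 5. miR-20a was 8.85 in CARB and 8.93 in CARC, against 7.13 in A5, 10.65 in D3 and 9.45 in H11, while miR-17, with the same seed, had its highest spindle level in A5. miR-106b, a paralog with that seed, was 8.64 in CARB and 8.92 in CARC, against 6.65 in A5, 10.12 in D3 and 9.92 in H11. miR-23a was 10.41 in CARB and 10.25 in CARC, against 7.42 in A5, 10.60 in D3 and 10.85 in H11, whereas miR-23b was 10.46 in CARB and 10.00 in CARC, against 11.86 in A5, 10.88 in D3 and 11.63 in H11. How far probes of such relatives cross-hybridise was not tested. As a result, several differences between CARB and CARC and the other lines rest on A5: without it the difference became -0.67 for let-7g (0.61 with it) and -0.39 for miR-23a (0.71 with it).

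**Figure D5:**
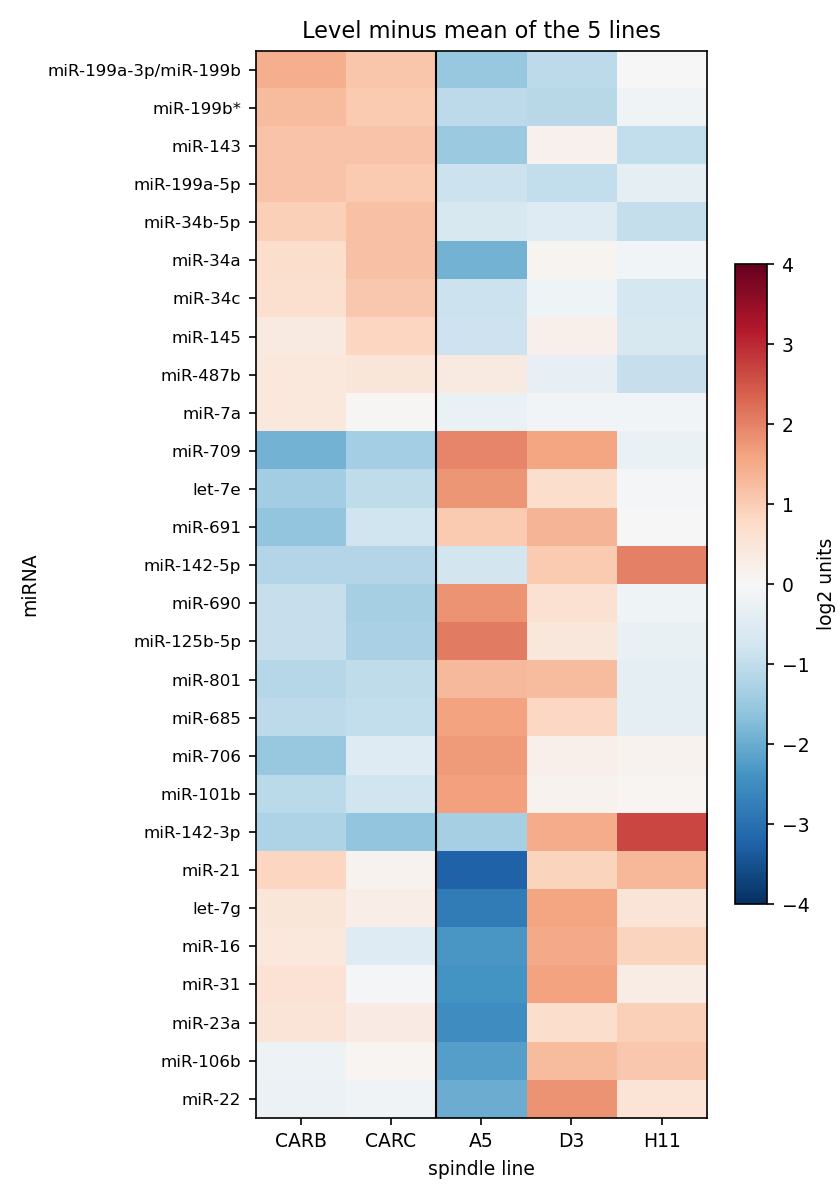
Levels of the miRNAs with the largest differences or spread, as log2 units from the mean of the 5 spindle lines (red above, blue below). CARB and CARC share their colours in nearly all rows. Most rows were chosen because CARB and CARC both lay on the same side of A5, D3 and H11. The shared colours there follow from the choice. A5 alone is deep blue for miR-21, let-7g, miR-16, miR-31, miR-23a, miR-106b and miR-22.

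CARB and CARC were not identical. Probes on which CARB exceeded CARC by more than 1 unit numbered 12, and those on which CARC exceeded CARB 9. CARB alone was bright for miR-208b, a heart muscle miRNA, at 8.40, against 6.63 to 6.88 in the other 4 spindle lines. It was also highest for miR-500 (8.33), miR-148a* (8.02) and miR-193b (7.99), each of which lay below 7.0 in the other 4 lines. On these CARB exceeded every squamous line as well. CARB was lowest for miR-574-5p (6.91 in CARB, against 7.98 to 8.79 in the other 4), miR-574-3p (6.66) and miR-466c-5p (6.93). CARC was lowest for members of the miR-15 family: miR-15b was 9.49 in CARB and 8.38 in CARC, against 10.05 in A5, 10.06 in D3 and 9.77 in H11, and miR-15a was 8.35 in CARB and 7.66 in CARC, against 9.70 in A5, 9.08 in D3 and 9.33 in H11. CARC also had the lowest miR-26a (8.42) and let-7c (10.07), and the highest miR-92a* (7.33), which was within background in all 5 spindle lines.

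The other spindle lines had features of their own. A5 was highest for miR-138* (10.97), miR-433* (10.73), miR-542-3p (10.07) and miR-337-3p (9.73), the second and last of which come from the Dlk1-Dio3 region. In CARB and CARC these were 8.53 and 8.97, 8.84 and 8.99, 7.90 and 8.21, and 7.23 and 7.99. D3 was highest for miR-22 (11.28), miR-20a (10.65), the Hox-cluster miRNA miR-10a (8.69) and miR-146a (7.96), which NF-kB induces. miR-146a was 6.47 in CARB and 6.55 in CARC, within background. H11 was highest for both strands of miR-140, a miRNA known from cartilage: miR-140* was 7.50 in CARB and 7.79 in CARC, against 7.66 in A5, 7.59 in D3 and 9.17 in H11, and miR-140 was 6.86 in CARB and 7.46 in CARC, against 8.15 in A5, 7.02 in D3 and 9.10 in H11. H11 was lowest for miR-207 (10.50), which was 11.50 in CARB and 11.92 in CARC.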

How the data were processed

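Per the labels' protocols, RNA extracted with Qiagen's miRNA kit was labelled with Cy3 through the Exiqon kit. The deposited values are log2 signals, a scale read from the values. How the arrays were scanned, background-corrected and normalized is not given in the sources used here. Centring and offset are thus unknown. Of 1271 probes, 576 naming mouse miRNAs were tested, and 570 for other species, 93 undisclosed and the control probes were not.

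The 2 A5 arrays were averaged. Linear models (limma 3.58.1, R 4.3.3, trended eBayes, calls at a Benjamini-Hochberg adjusted p of 0.05) were fitted to 13 lines in 5 groups, with 8 residual degrees of freedom. P-values measure the spread between single cultures of these lines. Single values had exact two-sided permutation tests. On simulated data with 60 of 576 probes changed, 46.8%, 78.8% and 90.1% of differences of 1, 2 and 3 log2 units were recovered. The simulated noise was independent between lines, with the same spread in all groups for a probe. In the data the called probes sat at background in the squamous lines, so these rates need not hold for this comparison.

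The lines, the lists of miRNAs and the tests were chosen with earlier results of these data known. Named miRNAs are miR-203 and miR-205, the up to 10 largest differences in each direction (called ones first, then those without overlap and above background), the 10 largest SDs, up to 4 highest and 4 lowest per line, and up to 4 members per list. The brightest probe stood for a miRNA with several. Alternatives covered the samples fitted, normalization, filters, the trend, the A5 arrays, the tumour as a block and each line left out.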

Additional observations from a re-analysis of the deposited data

Results flagged for a closer look

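Of 33 results examined over the 5 spindle lines, 3 had 1 line far from the others by Dixon's ratio, the gap to the nearest line over the whole range, with a 95% critical value of 0.71 for 5 lines. Chance gives about 1 such result in 20 for results not chosen by their spread. miR-21 and miR-23a were named for a large SD or a low A5 level, so that rate does not apply to them and their ratios are a description. A5 was far below the other lines for miR-21 (ratio 0.742) and for miR-23a (ratio 0.825), and D3 far above them for U6-snRNA-2 (ratio 0.859). Both A5 arrays gave the low miR-21 and miR-23a values.

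Among the 570 probes that name miRNAs of other species, which the comparison leaves out, 34 stood more than 1 log2 unit above the negative controls in all 5 spindle lines, CARB and CARC included, and 4 of the 34 are for viral miRNAs. The source of this signal was not tested.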

How the results depend on the processing

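The count of called probes was 4, and 3 to 6 under quantile normalization, median centring, all miRNA probes, no intensity trend, either A5 array alone, A5 and D3 averaged into 1 sample, the tumour as a random block (estimated correlation 0.232) and without C5N and MSCP1. It was 0 with only the 5 spindle lines (31 at unadjusted p under 0.05), 7 with dim probes left out (a filter that the miR-142 arms passed through D3 and H11 alone, so their calls there support nothing), and 0 (15 at unadjusted p under 0.05) when centred on probes detected in all 5 spindle lines, a setting chosen after seeing the data, in which the 4 probes had adjusted p of 0.0949. Leaving out 1 line gave 0 (without CARB or A5) to 20 (without CARC). The 3 miR-199 probes were called in every other setting, except miR-199a-3p and miR-199b without D3. However, miR-199a-5p and miR-199b* passed the filter on dim probes through CARB and CARC alone, so their calls there support nothing either.

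Probes without overlap, 19 higher and 112 lower, became 341 and 15 when centred on detected probes, 39 and 173 with A5 and D3 averaged, and 10 and 55 with dim probes left out. The higher count was 29 under quantile normalization. With 1 line left out they ran from 37 to 111 and from 161 to 230. Leaving out or averaging lines can only raise these counts, since probes already apart stay apart. For a single probe, 1 of the 10 splits of 5 lines gives no overlap in a set direction, so such probes also arise without a group difference. Probes with a range over 1 log2 unit, 216, became 359 when centred on detected probes and 142 with A5 and D3 averaged, with 145 to 210 when 1 line was left out. Leaving out or averaging lines can only narrow a range. Centring on detected probes moved all probes of a line by the same amount, those within background included.

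The difference of miR-203, 0.0097, was -0.0003 with the second A5 array alone, -0.028 with A5 and D3 averaged and -0.17 to 0.19 with 1 line left out. Centred on detected probes, differences turned positive for miR-205 (0.33), miR-141 (0.11), miR-200a (0.57), miR-200b (0.58), miR-183 (0.25), let-7b (0.0064), miR-100 (0.13), miR-99b (0.27), miR-99a (0.40), miR-150 (0.26) and miR-144 (0.62). That centring raises every difference by the same amount. miR-205, miR-141, miR-200a and miR-200b were within background in every spindle line, so their change of sign is a shift of background signals. Leaving out 1 line moved miR-429 between -0.13 and 0.81, miR-200b between -0.29 and 0.038, miR-183 between -0.97 and 0.029, let-7g between -0.67 and 1.52, miR-34b-3p between -0.56 and 1.12, miR-23a between -0.39 and 1.32, miR-99a between -0.65 and 0.060 and miR-26b between -0.89 and 0.52. miR-26b was -0.19 with A5 and D3 averaged. The causes were not tested. No paired analysis was possible because no replicate number pairs the lines.

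With 1 array per line, the number of arrays limits precision, and differences against signals near the negative controls understate the change in the miRNA.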
